A study of Drosophila melanogaster with 3 samples.

Results

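The genes described are sbb, CG1677, Tlk, bun, tara and CG32264, 6 long genes of Drosophila melanogaster whose introns carry many sites enriched for the tagged protein CG13296. The list of peaks kept by the authors' irreproducible discovery rate (IDR) step holds the peaks of highest signal from the pooled replicates. A single peak in it need not recur in every replicate. The 6 genes were taken from those with high counts in this list. Each has at least 8 summits, the positions of highest enrichment, inside its body and more than 500 bp from the transcription start site (TSS) of any annotated gene. Such summits are called distal here. Of 18164 annotated genes, 22 reached that count (0.121%), 21 of them protein-coding, and the 6 genes are among these. Other genes had equal or higher counts, so counts alone do not set the 6 apart. Together the 6 genes hold 59 distal summits, 2.71% of the 2174 that lie inside genes, out of 2728 distal summits in the whole IDR list. Because the selection used the counts, they are given as a description and were not tested.

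The protein was mapped by chromatin immunoprecipitation sequencing (ChIP-seq) in a transgenic line that stably carries CG13296 with green fluorescent protein (GFP) at its C-terminus, in whole embryos of pooled sex, 6 to 18 hours old. There was 1 group of 3 biological replicates, recorded as separate biosamples of that 1 line, so every value describes the tagged line and no untagged line was compared. Although the sample descriptions call the libraries input controls, their assay title, antibody tag and derivation records make them the immunoprecipitated samples, set against 1 shared control, and they are treated as such. An age tag with an impossible number of hours was not used, and without read numbers in the sources used here the depth is unknown. Whole embryos mix all tissues, and a site may be occupied in only some of their cells.

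CG13296, also named Prdm13, encodes a zinc-finger protein of the PR domain family, whose members bind DNA and often act as repressors or recruit chromatin-modifying enzymes. In flies, as in other animals, long introns commonly hold enhancers, short stretches of DNA where transcription factors gather and which can act on the gene around them or on a neighbour. Which gene such a site acts on cannot be read from binding alone. Of the 6 genes, sbb (scribbler, also called brakeless) encodes a nuclear corepressor of transcription. Tlk encodes the Tousled-like kinase, a nuclear kinase of chromatin assembly. The gene bun (bunched) encodes proteins of the TSC22 domain family that act in growth and in follicle cell patterning, and tara (taranis) encodes a trithorax group protein with a SERTA motif that has roles in cell fate, the cell cycle and sleep. CG1677 and CG32264 encode proteins known by these codes only in the annotation used.

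The sequences at the strongest distal site of single genes are shown first, since they are the DNA around the summits of highest signal. Each is the 201 bases centred on the distal summit of highest signal in a gene, for 5 of the 6 genes, with that of sbb not printed here, read from the plus strand of the RefSeq release 6 genome (dm6). Capitals mark matches to any of 9 searched motifs, which are spelled out with their shares further on. The windows lie at X:7324916-7325116 in CG1677, X:3742101-3742301 in Tlk, 2L:12497739-12497939 in bun, 3R:16236885-16237085 in tara and 3L:3771570-3771770 in CG32264.
CG1677: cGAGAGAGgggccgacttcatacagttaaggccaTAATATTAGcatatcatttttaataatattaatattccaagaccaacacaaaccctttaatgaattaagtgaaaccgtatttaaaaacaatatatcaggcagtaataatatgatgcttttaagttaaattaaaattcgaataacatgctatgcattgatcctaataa
Tlk: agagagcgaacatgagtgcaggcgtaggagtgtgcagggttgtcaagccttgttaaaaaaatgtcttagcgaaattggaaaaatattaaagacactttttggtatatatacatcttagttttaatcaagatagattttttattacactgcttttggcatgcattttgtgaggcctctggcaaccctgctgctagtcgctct
bun: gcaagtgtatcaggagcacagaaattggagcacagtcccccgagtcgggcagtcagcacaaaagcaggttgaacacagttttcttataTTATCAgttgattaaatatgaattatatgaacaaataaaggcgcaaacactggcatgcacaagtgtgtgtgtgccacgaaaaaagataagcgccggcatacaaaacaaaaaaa
tara: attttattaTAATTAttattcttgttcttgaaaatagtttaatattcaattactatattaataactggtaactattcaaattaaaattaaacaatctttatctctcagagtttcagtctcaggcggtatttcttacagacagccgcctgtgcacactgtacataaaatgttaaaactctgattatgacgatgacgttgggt
CG32264: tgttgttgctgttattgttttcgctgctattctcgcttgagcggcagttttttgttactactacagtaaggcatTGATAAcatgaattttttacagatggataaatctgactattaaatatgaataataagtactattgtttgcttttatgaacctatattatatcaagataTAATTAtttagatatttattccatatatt
The Tlk window, the strongest distal site of all 6 genes, holds no match to the 9 motifs, nor does that of sbb, at rank 81. The CG1677 window has a relaxed Mef2 match 66 bases before the summit and a GAGA match at its left edge. The bun window has 1 GATA match 12 bases before the summit, the tara window 1 homeodomain match 91 bases before it, and the CG32264 window a GATA match 26 bases before and a homeodomain match 72 bases after it. Their GC content was 28.9% in CG1677, 38.8% in Tlk, 41.3% in bun, 28.9% in tara and 26.9% in CG32264.

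The distal summits lay mostly in long introns, which make up most of each of these genes. The 6 genes span 34.7 to 124.7 kb, with a median of 85.1 kb, where the median protein-coding gene spans 2.17 kb, and the longest intron of each is 30.3 to 73.9 kb. Of the 59 distal summits, 58 (98.3%) lay outside every exon of the gene, and the 1 exception lay in the 3′ UTR of bun. No share of bases outside exons is given beside this, so it is no sign of a preference. The longest intron of each gene held 49 of the 59 (83.1%, exact 95% interval 71.0 to 91.6), where it holds 73.3% of the intronic bases that are more than 500 bp from a TSS. That base share lies within the interval. The first intron held 10 (16.9%, 8.44 to 29.0), where it holds 19.8% of those bases. Introns are numbered along the transcript of longest genomic span. With the transcript of longest coding sequence in its place, the first intron held 24 (40.7%, 28.1 to 54.3), to which sbb contributed its 11, since the same intron is then counted as its first. The 59 still include summits of Tlk and CG32264 that lie outside those transcripts. No share of bases is given for this choice. Intervals cover counting error only, and summits of 1 gene are not independent of each other.

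**Figure D1:**
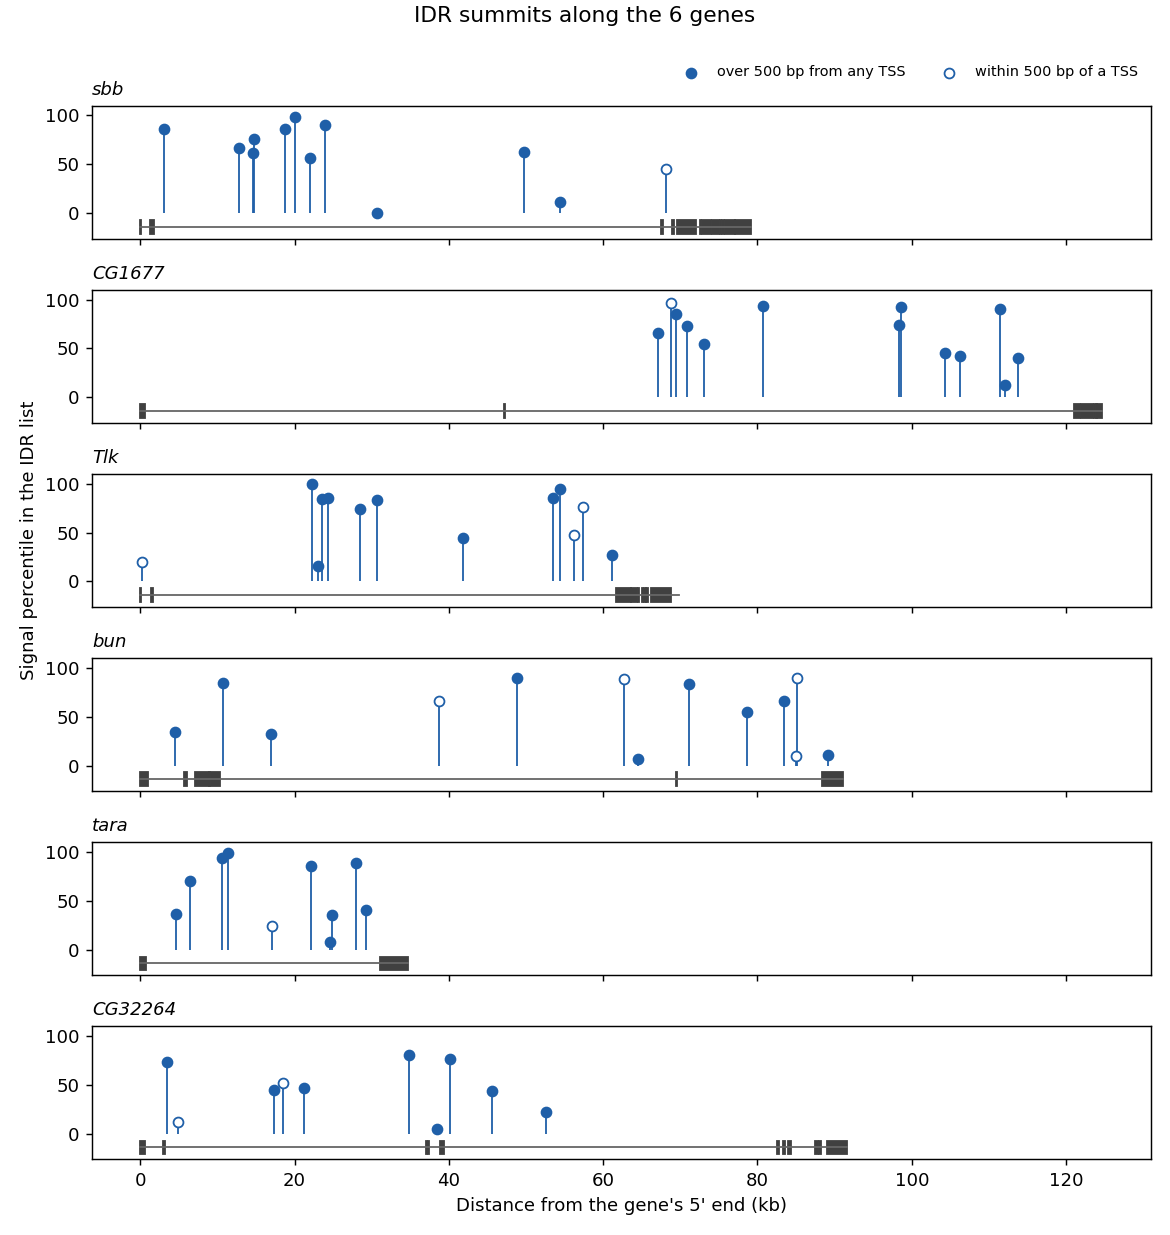
Each panel is 1 gene, with distance from its 5′ end in kb across and the percentile of a summit's signal in the IDR list upward; boxes are exons of the transcript of longest span, filled points are distal summits and open points lie within 500 bp of a TSS. The summits of sbb gather in the 5′ part of its 65.6 kb intron, those of CG1677 fill only its intron 2, and those of bun run along most of the gene.

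Neighbouring distal summits of the 6 genes were a median of 4005 bp apart, with quartiles of 1702 and 6728 bp and a range of 202 to 31868 bp over 53 gaps. The corresponding medians were 1989 bp over 123 gaps of the 15 other protein-coding genes with 8 or more, and 3028.5 bp over 1006 gaps of the other protein-coding genes with at least 2. Spacing differed among the 6. The median gap was 2976 bp in sbb, 2266 bp in CG1677, 2237 bp in Tlk and 2084 bp in tara, and it was 6460.5 bp in bun and 5480 bp in CG32264. Gaps under 1000 bp numbered 4 in Tlk, 2 in CG1677, 2 in tara and 1 in sbb, and there was none in bun or CG32264. The sites of bun and CG32264 were thus set far apart, and the other 4 genes held close pairs or groups of sites with long gaps between them. The median distance to the nearest TSS was 3052 bp, against 2172 bp for the 2115 other distal summits inside genes, and 22 of 59 (37.3%) were farther than 5 kb, against 530 of 2115 (25.1%).

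The gene sbb lies on 2R from 18278198 to 18357296 on the minus strand and had 11 distal summits and 1 within 500 bp of a TSS in its body. All 11 lay in intron 2, of 65.6 kb, between 3.06 and 54.4 kb from the 5′ end of the gene, and 8 of them fell in the first 23.9 kb. The strongest, at 20.1 kb, had rank 81 by signal in the IDR list and ranks 43, 132 and 143 in replicates 1, 2 and 3. The next, at 23.9 kb, had rank 567 and replicate ranks 514, 566 and 646. The third, at 3.06 kb, had rank 787 and replicate ranks 540, 1057 and 1061. All 3 stayed within rank 1061 in every replicate, while the weakest, at 30.6 kb, had rank 5707 and was outside the top list of every replicate, which is here the strongest peaks of a replicate in the same number as the IDR list holds. Another 2 summits, 205 bp apart at 14.6 and 14.8 kb, lie in overlapping intervals and matched the same peak in replicates 1 and 3. Both TSSs of sbb also carried an IDR summit within 500 bp, of which the higher had rank 144, and 4 of the 11 distal summits were nearer to a TSS of the genes Tango8 or CG14505, which lie within sbb, than to one of sbb itself.

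CG1677 lies on X from 7281089 to 7405797 on the minus strand and is the longest of the 6, with 12 distal summits. All 12 lay in intron 2, of 73.9 kb, at 67.1 to 113.7 kb from the 5′ end, and none in intron 1, of 46.5 kb. The relaxed lists of 30000 peaks each showed the same side of the gene. Intron 2 held 29, 32 and 30 distal summits in replicates 1, 2 and 3 and intron 1 held 5, 4 and 1, with 63.7 and 42.8 kb of distal bases. The strongest IDR summit in the gene, at 68.7 kb in the same intron, is not distal, since it lies 287 bp from the TSS of CBP. It had rank 191 and replicate ranks 166, 174 and 234. The strongest distal site, at 80.8 kb, had rank 358 and replicate ranks 286, 400 and 416. It lies inside Dok, a gene of an adaptor protein downstream of tyrosine kinases, 802 bp from its TSS. The next, at 98.6 kb, had rank 442 and replicate ranks 777, 497 and 317, and with a summit 202 bp away it shared 1 peak in every replicate. It lies 751 bp upstream of brk (brinker), which encodes a repressor of Dpp target genes. The third, at 111.4 kb, had rank 535 and replicate ranks 511, 890 and 469.

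None of the 12 summits of CG1677 was nearest to a TSS of CG1677. The nearest was that of unc-119 for 4, of brk for 3, of CBP, which encodes a calcium-binding protein, for 3, and of Dok and CG42780 for 1 each, all of which lie within intron 2. None of the 3 TSSs of CG1677 had an IDR summit within 500 bp. All 12 also lie in the body of the non-coding gene lncRNA:CR44357, which spans 239347 bp and had 15 distal summits of its own, the highest count of any gene. The count of CG1677 thus describes a stretch of X with several genes in it, and the same summits are counted for lncRNA:CR44357.

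Tlk lies on X from 3720007 to 3789770 on the plus strand and had 10 distal summits, all in intron 2, of 60.0 kb. They formed groups at 22.2 to 30.7 kb and at 53.5 to 61.2 kb from the 5′ end, with 1 summit between them at 41.9 kb. Those from 22.2 to 41.9 kb lie outside the transcript of longest coding sequence. The strongest, at 22.2 kb, had a signal of 2961.4 on the authors' scale and rank 21, the highest of all 59, with ranks 23, 24 and 22 in replicates 1, 2 and 3. The next, at 54.4 kb, had rank 335 and replicate ranks 333, 319 and 381. The third, at 24.3 kb, had rank 849 and replicate ranks 1802, 1188 and 461, a wider spread than at the strongest site. Tlk had the highest median rank of the 6 genes, 937, which is the 83.6th percentile. All 10 were nearest to a TSS of Tlk itself, which has 8, and 2 of these TSSs carried an IDR summit, the higher at rank 3015.

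The gene bun lies on 2L from 12455540 to 12546611 on the minus strand and had 9 distal summits and 4 near a TSS. The 9 were spread over the gene from 4.46 to 89.2 kb, with 1 in intron 1, of 4.74 kb, 4 in intron 5, of 59.1 kb, 3 in intron 6, of 18.9 kb, and 1 in the 3′ UTR. The strongest, at 48.8 kb, had rank 617 and replicate ranks 388, 1003 and 858, and lay 506 bp upstream of the TSS of t-cup, just past the distance limit. The next, at 10.7 kb, had rank 892 and replicate ranks 966, 785 and 1051. The third, at 71.2 kb, had rank 979 and replicate ranks 692, 1492 and 1268. The summit at 64.5 kb, of rank 5342, had no match in the relaxed list of replicate 2 and was outside the top lists of all 3. At the TSSs, 2 of 7 carried a summit, the higher at rank 586, so the strongest summit at a TSS ranked above the strongest distal one.

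The gene tara lies on 3R from 16225651 to 16260329 on the plus strand. It is the shortest of the 6, at 34.7 kb, and its 9 distal summits all lay in its only intron, of 30.3 kb. That is 2.71 summits for each 10 kb of distal sequence, the densest of the 550 protein-coding genes at least as long. Shorter genes with 8 or more fall outside that set. Among them, CHES-1-like had 11 in 27048 bp and Mnt 9 in 29872 bp, while simj had 8 in 25996 bp and crp 8 in 24175 bp. The strongest distal site of tara, at 11.3 kb, had rank 94 and replicate ranks 104, 101 and 78, and the site 780 bp before it, at 10.6 kb, had rank 337 and replicate ranks 787, 229 and 225. The third, at 28.0 kb, had rank 680 and replicate ranks 1262, 725 and 444, and its nearest TSS was that of bor, an AAA ATPase gene beyond the 3′ end. The weakest, at 24.6 kb, had rank 5280, had no match in the relaxed list of replicate 1 and was in the top list of 1 replicate. The TSSs of tara carried 1 summit between them, at rank 4322, lower than 8 of the 9 distal ones.

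CG32264 lies on 3L from 3714826 to 3806459 on the minus strand and had 8 distal summits, the fewest the selection allowed. Intron 2, of 33.9 kb, held 4, intron 4, of 1.51 kb, held 1 and intron 5, of 43.3 kb, held 3. The strongest, at 34.8 kb, had rank 1110, in the IDR list below the strongest site of each of the other 5 genes. Its replicate ranks were 1339, 973 and 1222, and in replicate 2 it stood above the strongest site of bun, at rank 1003. The next, at 40.1 kb, had rank 1328 and replicate ranks 1710, 1165 and 1623, and the third, at 3.52 kb, had rank 1520 and replicate ranks 2203, 1007 and 1546. With a median rank of 3101, the 45.8th percentile, CG32264 was the only one of the 6 whose median lay in the weaker part of the list. Its farthest summit, at 52.6 kb, lies inside ppk27, a gene of the DEG/ENaC channel family, and no IDR summit lay between it and the 3′ end of the gene.

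**Figure D2:**
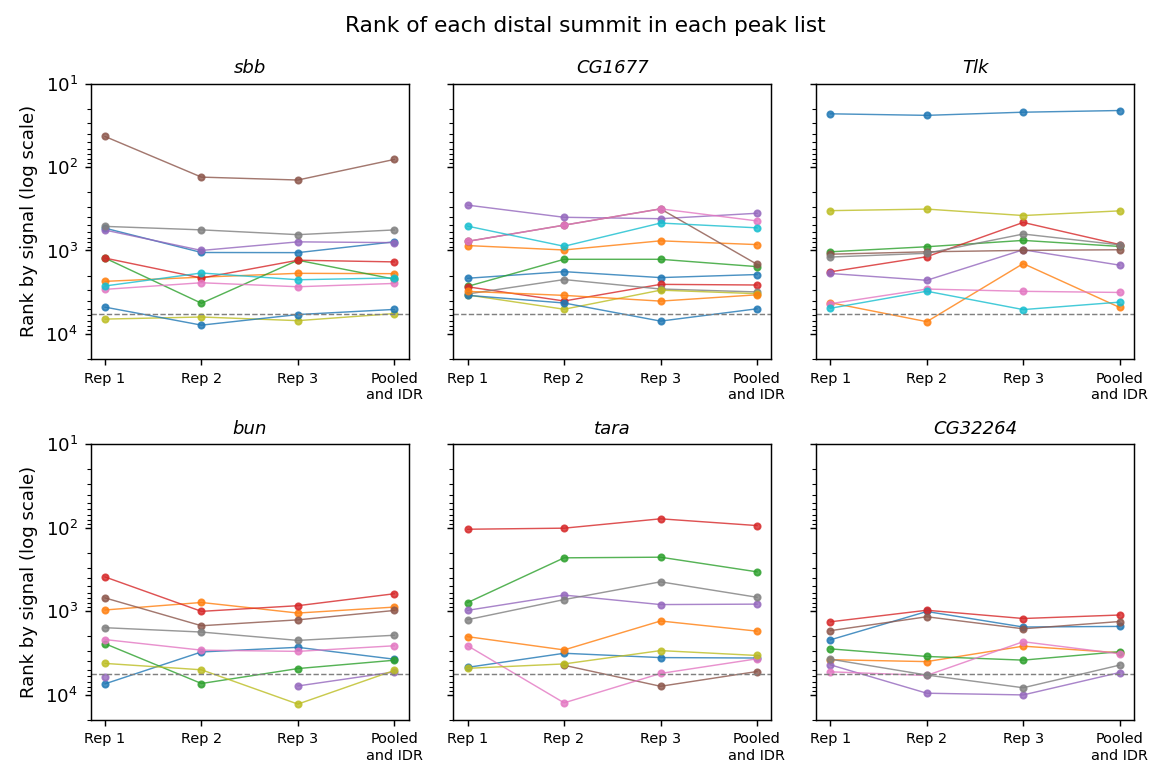
Each line is 1 distal summit, with its rank by signal (log scale, strongest at the top) in the lists of replicates 1, 2 and 3 and in the pooled and IDR lists; a gap is a summit with no match, and the dashed line marks the length of the IDR list. The strongest summit of Tlk stayed at ranks 21 to 24, and the strongest of sbb and tara stayed within rank 143.

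By signal, the 59 distal summits ranked above other distal sites inside genes. Their median rank was 1896, where the middle of the list is rank 2862.5. This is the 66.9th percentile, against a median percentile of 57.6 for 138 summits of the 15 other protein-coding genes with 8 or more and 47.4 for the 2115 others. The median percentile was 66.9 in sbb, 69.4 in CG1677, 83.6 in Tlk, 54.7 in bun, 69.8 in tara and 45.8 in CG32264. Within the first 1000 ranks lay 21 of the 59 (35.6%, exact 95% interval 23.6 to 49.1), against 295 of 2115 (13.9%, 12.5 to 15.5) others. Of all IDR summits 17.5% lay there. In the 15 other protein-coding genes with 8 or more it was 36 of 138 (26.1%). The share of the 138 lies within the interval of the 59, and the difference was not tested. The IDR list consists of the pooled peaks of highest signal, so each summit had the same rank in both. The replicates' own lists gave median ranks of 2084.5 for 58 matched summits in replicate 1, 1974.5 for 58 in replicate 2 and 1546 for 59 in replicate 3, against 2900, 3223 and 3003.5 for the other distal summits. The 59 thus stood higher in each replicate, but the genes were selected on the same peaks, so the replicates are no separate evidence.

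Each IDR summit was called supported by a replicate when a summit of that replicate's top list lay within 200 bp. All 3 replicates supported 46 of the 59 (78.0%, exact 95% interval 65.3 to 87.7), where the share of all IDR summits was 63.4% (3630 summits) and that of the 2115 others 62.8%. In the other protein-coding genes with 8 or more it was 99 of 138 (71.7%, 63.5 to 79.1). The share followed rank. All 37 of the 59 with a signal above the median of the IDR list were supported by all 3 replicates, against 970 of 1007 others (96.3%). Of the 22 that ranked lower, 9 were (40.9%, 20.7 to 63.6), against 359 of 1108 others (32.4%). In the other protein-coding genes with 8 or more these shares were 96.1% above the median and 41.9% below it. Support by all 3 reached 9 of 11 summits in sbb, 11 of 12 in CG1677, 9 of 10 in Tlk, 5 of 9 in bun, 7 of 9 in tara and 5 of 8 in CG32264. No replicate supported 2 of the 59 (3.39%, 0.413 to 11.7), against 17 of 2115 others (0.804%) and 33 of all IDR summits (0.577%). In the other protein-coding genes with 8 or more it was 0 of 138. The 2 summits with no support were the weakest of sbb and of bun. The genes bun and CG32264, with the lowest median ranks, also had the lowest shares of supported summits.

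Counts taken afresh from each replicate's own top list varied by a few summits per gene. In replicates 1, 2 and 3 there were 12, 11 and 8 distal summits in sbb (10.3 ± 2.08, SD, n = 3), and 14, 13 and 13 in CG1677 (13.3 ± 0.577). Tlk had 11, 9 and 12 (10.7 ± 1.53), bun 12, 9 and 9 (10 ± 1.73), tara 9, 12 and 9 (10 ± 1.73) and CG32264 9, 6 and 6 (7 ± 1.73). Of the 6 genes, 5 stayed at 8 or more in every replicate, and CG32264 did so in replicate 1 only. The order of the genes by count cannot be told from this spread, apart from CG1677, whose lowest replicate lies above the highest of all the others, and CG32264, whose mean is lowest while its highest replicate overlaps others. In the relaxed lists of 30000 peaks the genes held 31 to 73 distal summits in a replicate, and bun had the most in replicates 1 and 3, with 59, 44 and 73 (58.7 ± 14.5), against 54, 47 and 53 in sbb.

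**Figure D3:**
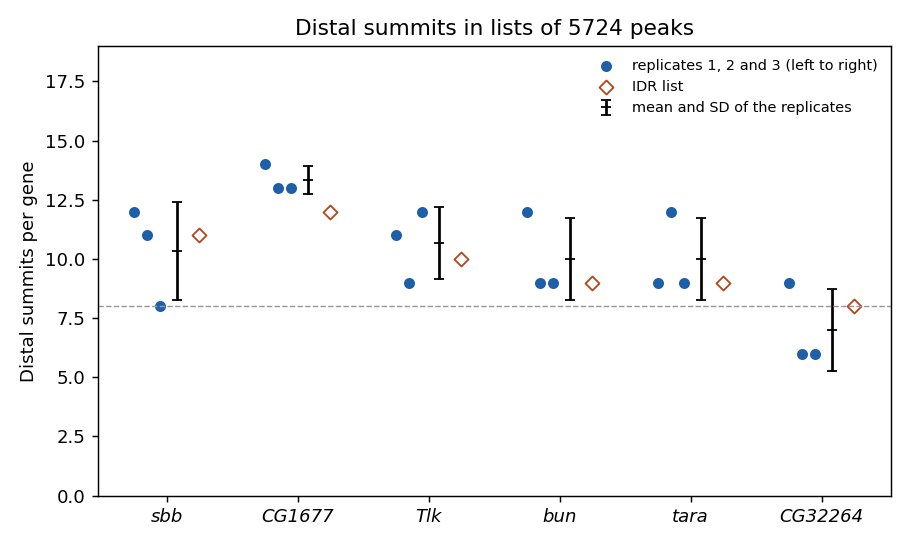
Distal summits per gene, with filled points for the top lists of replicates 1, 2 and 3, bars for their mean and SD, and an open diamond for the IDR list. The dashed line is the 8 that the selection required. CG1677 lies highest in every replicate, and CG32264 falls to 6 in replicates 2 and 3.

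Most genes at least as long as the shortest of the 6 held few distal summits. Of 544 other protein-coding genes of at least 34.7 kb, 253 (46.5%) had no distal IDR summit, the median was 1, and 11 reached 8. Per 10 kb of distal sequence the 6 genes together held 1.35 summits, from 0.962 in CG32264 to 2.71 in tara, against 0.205 in the 544 others together. All 6 were required to have 8 or more of these summits, so a higher density than in the 544 was set by the selection. Those others have no upper limit of length, and many are longer than any of the 6. In order of density among the 550 genes, tara was number 1, Tlk 11, sbb 13, bun 31, CG1677 34 and CG32264 42. The 6 are therefore not the 6 densest long genes, and ush, a cofactor gene of GATA proteins, had the highest count of the others, 13 summits.

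**Figure D4:**
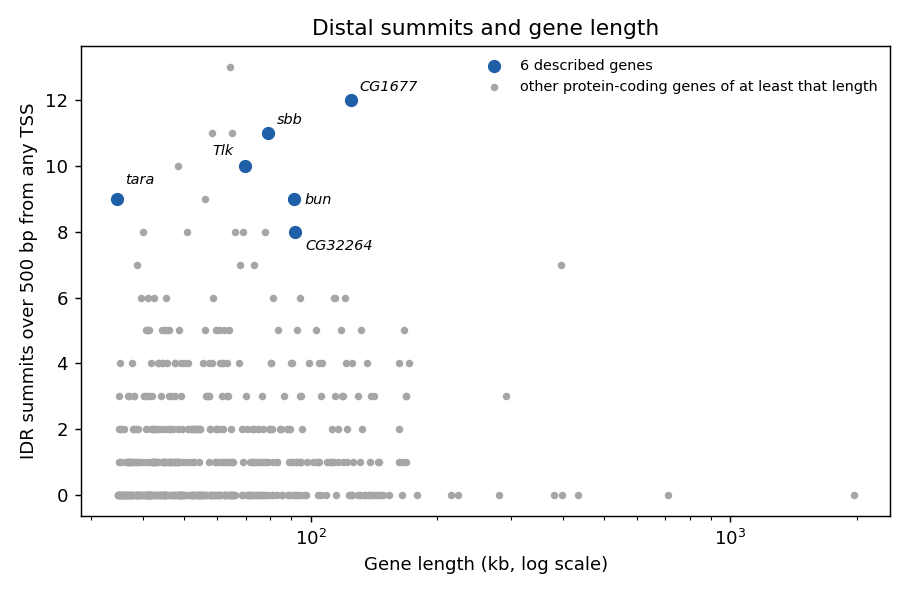
Protein-coding genes of at least 34.7 kb, with gene length (kb, log scale) across and distal IDR summits upward; the 6 genes are labelled and the 544 others grey. Most long genes lie at 0 or 1, including the longest, and the 6 lie between 8 and 12.

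At the limit of 8, CG32264 stands beside 8 other genes with the same count, Hr4, NFAT, Snoo, crp, ftz-f1, mam, shot and simj. Just below it are 6 genes with 7, PRAS40, SNF4Agamma, elB, kirre, px and tou. The distance limit matters for single sites. The nearest of the 59 to a TSS lay 506 bp away in bun, 517 and 549 bp in CG1677, 578 bp in Tlk and 584 bp in CG32264. With 1000 bp as the limit, 4 of the 6 genes kept 8 or more, and CG1677 and CG32264 did not. With 1 summit kept per 1000 bp, sbb, CG1677, bun and CG32264 kept 8 or more, while Tlk and tara, which have the most closely set sites for their number, did not.

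The DNA at the summits was poor in GC relative to its surroundings. The 201 bases around the 59 distal summits had a median GC content of 35.8%, against 40.8 and 43.3% in windows of equal width 500 bp before and after, and 39.3% over the distal sequence of the 6 genes. The 2115 other distal summits also had 35.8%, against 41.3 and 40.8% in their flanks. The window was poorer in GC than both its flanks at 34 of 59 summits (57.6%), against 1089 of 2115 (51.5%) others. By gene, the median at the summits and in the flanks was 31.3% and 46.0% in CG1677, 33.8% and 43.0% in Tlk, 38.3% and 47.3% in tara, 37.3% and 41.0% in CG32264, and 36.8% and 39.3% in sbb. In bun it ran the other way, with 38.8% at the summits and 34.1% in the flanks. How base composition affected the sequencing or peak calling was not tested.

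**Figure D5:**
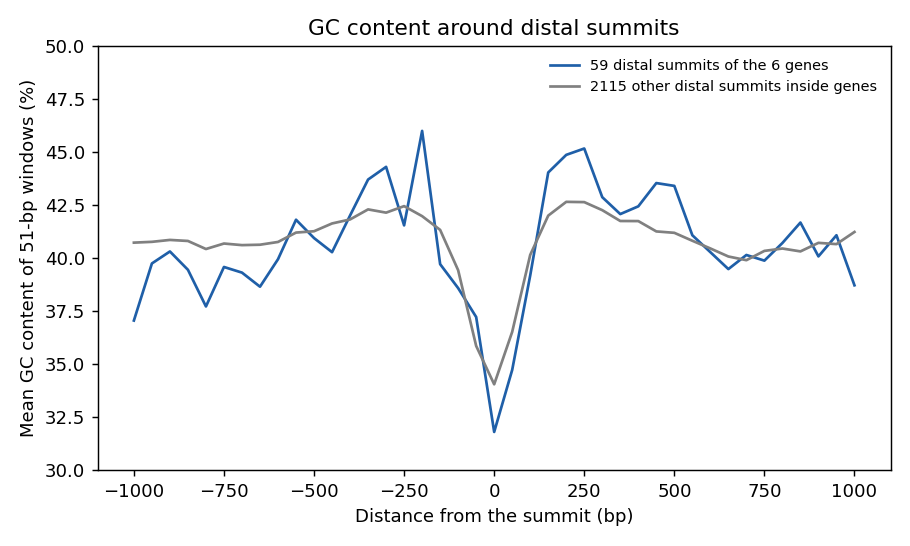
Mean GC content in percent of 51-bp windows against distance from the summit in bp, for the 59 distal summits of the 6 genes (blue) and the 2115 other distal summits inside genes (grey). Both lines dip at the summit, to 31.8% in the 6 genes and 34.1% in the others.

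Of the 9 motifs, searched on both strands of the 201-base windows and free to overlap each other, 3 AT-rich ones were the most frequent. The relaxed Mef2 site CTANNNNTA lay in 20 of 59 windows (33.9%), where the flanks of these summits had 20.3%, the other distal summits 31.6% and 201-base tiles of the chromosome arms 24.1%. The GATA site TGATAA lay in 11 (18.6%), where the flanks had 10.2%, the others 21.7% and the tiles 12.1%. The homeodomain site TAATTA lay in 10 (16.9%), where the flanks had 9.32%, the others 17.3% and the tiles 12.5%. For these 3 AT-rich motifs the share at summits was above that in the flanks in both sets. The 59 windows were also poorer in GC, with a median of 35.8% against 40.8 and 43.3% in the flanks. How base composition affected the motif shares was not tested. The forkhead site TGTTTAC lay in 3 of 59 (5.08%, exact 95% interval 1.06 to 14.1) and in 4.24% of the flanks, against 11.2% (9.89 to 12.6) at the other distal summits and 5.08% in theirs, with 3.83% of the tiles. With 3 windows the intervals overlap, and the difference was not tested.

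The remaining motifs were rare. GAGAGAG, the GAGA factor site, lay in 3 windows (5.08%), where the flanks had 9.32%, the others 3.78%, their flanks 6.43% and the tiles 2.45%. The E-box CAGCTG also lay in 3 (5.08%), where the flanks had 8.47%, the others 8.18%, their flanks 9.48% and the tiles 8.39%. Both were thus less frequent at summits than in the flanks in both sets, with few windows in the 6 genes. The CTCF core AGNNGGCGC lay in 1 (1.69%), where the flanks had 0.847%, the others 1.94%, their flanks 1.70% and the tiles 1.77%. The Zelda site CAGGTAG and the DREF site TATCGATA lay in none of the 59, which allows a share of up to 6.06% by the exact 95% interval, against 1.04 and 0.236% of the others and 1.09 and 0.564% of the tiles. No match says only that these letters are not in the windows.

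All 2080 sequences of 6 bases were then ranked at the 2115 other distal summits, by their share there over that in the flanks, among those in at least 100 windows, and the leading 4 were read in the 6 genes. This step was added after the data were seen. AGTGTA lay in 14 of 59 windows (23.7%, against 5.08% of their flanks), where the others had 16.0% and their flanks 7.26%. ACACTG lay in 12 (20.3%, against 3.39%), where the others had 13.9% and their flanks 6.76%. CACTGA lay in 9 (15.3%, against 3.39%), where the others had 15.0% and 7.38%, and ACAGTG in 8 (13.6%, against 9.32%), where the others had 17.3% and 8.01%. These 4 overlap in their letters, so they are not separate signals. At least 1 of the 4 lay in 28 of 59 windows (47.5%), where the flanks of these summits had 17.8%, the other distal summits 41.9% and 201-base tiles of the 6 genes 22.4%. Each gene had such windows, with 6 of 11 in sbb, 5 of 12 in CG1677, 3 of 10 in Tlk, 4 of 9 in bun, 6 of 9 in tara and 4 of 8 in CG32264.

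ACACTG matches are shown in 30 bases of their context, a set chosen after the values were seen, since this word had the highest share at summits over flanks in the 6 genes among the 4. In capitals is ACACTG, read on the strand that holds it, from the release 6 genome, and the distance, in either direction, runs from the summit to the lowest coordinate of the match. Of the 12 windows with the word, 11 in 5 genes are shown, and the 12th, in sbb, is not printed here.
CG1677 at X:7293634-7293663, plus strand, rank 4999, 57 bp from the summit: acacgaattgatACACTGaacaaaacacga
Tlk at X:3742232-3742261, plus strand, rank 21, 43 bp from the summit: agattttttattACACTGcttttggcatgc
Tlk at X:3781178-3781207, minus strand, rank 4160, 12 bp from the summit: atgcactttgcaACACTGacgccgcttttg
bun at 2L:12529620-12529649, plus strand, rank 3866, 75 bp from the summit: gcaataacaacaACACTGataggcgatgtt
bun at 2L:12497861-12497890, plus strand, rank 617, 34 bp from the summit: ataaaggcgcaaACACTGgcatgcacaagt
tara at 3R:16237025-16237054, plus strand, rank 94, 52 bp from the summit: agccgcctgtgcACACTGtacataaaatgt
tara at 3R:16247725-16247754, plus strand, rank 822, 51 bp from the summit: acccacccaagcACACTGgcaaaaataatg
tara at 3R:16250149-16250178, plus strand, rank 5280, 62 bp from the summit: tacatatacagcACACTGgttccatcatca
tara at 3R:16250607-16250636, plus strand, rank 3717, 82 bp from the summit: ttgttgcctcgtACACTGcgcgacgtgcaa
tara at 3R:16253592-16253621, minus strand, rank 680, 66 bp from the summit: tagctcaggcgaACACTGaagtttatttaa
CG32264 at 3L:3802940-3802969, minus strand, rank 1520, 12 bp from the summit: ctacagctttatACACTGagagaaacccat
The strongest sites of Tlk, bun and tara are among them, at ranks 21, 617 and 94, and tara supplies 5 of the 11, at ranks 94 to 5280. The 11 matches shown lay 12 to 82 bp from the summit.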

How the data were processed

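The authors deposited relaxed lists of 30000 peaks for each of 3 replicates and for the pooled replicates, and the shorter IDR list, on build dm6 per the deposited records. The aligner, peak caller and IDR threshold are not given in the sources used here. The deposited signal value of a peak served only to rank peaks within 1 list, and no signals were tied in the IDR list. The deposited −log10 q-value, 4.08 throughout the IDR list, was left aside. Summits were taken from the authors' deposited summit offset. Genes came from Ensembl release 115 (BDGP6.54, with the coordinates of dm6), without transposable elements, on 6 chromosome arms. Replicates entered as ranks, counts, and mean ± SD. No test was made, since the summits that chose the genes are those described. Exact binomial 95% intervals cover counting error only. Leaving out a replicate kept the IDR summits supported by each of the other 2. The counting steps were tested on simulated positions and returned the planted answers in 4 of 4 checks. The members and lists were chosen with earlier results of these data known. The genes named are the 6, genes in or over the intron of a described summit, those with 7 or with 8 or more distal summits, and up to 3 summits of highest signal per gene. Not every gene that this rule takes is named. Python 3.11.15, numpy 2.4.6, pandas 2.3.3, scipy 1.17.1 and matplotlib 3.10.9 were used. Motif letters were matched in the RefSeq release 6 genome.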

Additional observations from a re-analysis of the deposited data

How the results depend on the processing

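Of the values for the 6 genes together, other settings moved 3 beyond the limits set for them, and 8 values of single genes or motifs also moved. Kept to IDR summits with a signal above the median of the list, the distal summits of the 6 genes numbered 37 in place of 59, and sbb and CG1677 alone kept 8 or more. With the whole relaxed lists, support by all 3 replicates was 96.6% in place of 78.0%. With the transcript of longest coding sequence, the first intron held 40.7% in place of 16.9%. The count was 64 with a TSS distance of 200 bp, 49 with 1000 bp, 60 with protein-coding TSSs only and 51 with 1 summit per 1000 bp, and support was 67.8% with windows of 50 bp and 81.4% with 250 bp. Left out in turn, replicates 1, 2 and 3 gave counts of 47, 50 and 48, with 3, 4 and 3 genes at 8 or more. CG32264 fell to 5 without replicate 1 or 3. Above the median signal bun had 5, tara 5 and CG32264 3, and with 1000 bp CG1677 had 6. The sets with a replicate left out are stricter, so a change is not that replicate's alone. Support by both other replicates ranged from 79.7 to 84.7%, which restates the counts of 47, 50 and 48 out of 59. It cannot fall below the 78.0% supported by all 3, so it is no check of that share. In these sets the first-intron share ranged from 14.6 to 17.0% and the median spacing from 3990.5 to 4130 bp. With 1 summit per 1000 bp the spacing was 4922 bp. By the ranks of the replicates the median percentile ranged from 62.8 to 71.7. With windows of 50 bp, the share of summits with a motif was 13.6% for Mef2 and 6.78% for the homeodomain site, and with 200 bp it was 11.9% for forkhead, 11.9% for GAGA and 10.2% for the E-box. Motif shares depend on window width, and no flank or tile share is given at these widths. No paired analysis was possible because there is 1 group.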
